A study of Mus musculus with 42 samples.

Results

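The report concerns 5 noncoding transcripts of mouse pre-B cells, Pvt1, Mir155hg, 9230114K14Rik, Neat1 and Malat1, out of 12363 genes with a usable probe set. They were picked by gene symbol with earlier radiation results of these arrays known, to set transcripts that follow p53 targets beside transcripts that follow NF-kB targets. Their changes after radiation are therefore given as descriptions, without a test. The array holds 16 probe sets with these symbols, 5 for Pvt1, 1 for Mir155hg, 1 for 9230114K14Rik, 2 for Neat1 and 7 for Malat1, and all 16 passed the filter on low signals.

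Expression was measured on 42 Affymetrix arrays in 21 pre-B cell lines, 3 per genotype, each irradiated with 1 Gy of gamma rays from a 137Cesium source or mock treated, and collected 2 h later. Every line came from bone marrow of a mouse aged 3 to 5 weeks and was transformed with the retrovirus pMSCV-v-abl, which carries an oncogenic tyrosine kinase. All mice, WT included, carried the Em-Bcl2 transgene, in which a B-lineage enhancer drives the survival protein Bcl2. The genotypes were Atm-/- (lacking the kinase Atm, an upstream signal of DNA breaks), Scid (mutated in DNA-PKcs/Prkdc, a kinase of end joining), Mre11A/A (a hypomorph of the break-binding nuclease Mre11), 53bp1-/-, H2ax-/- and Mdc1-/- (each lacking a protein of the chromatin next to a break), and WT. Lines of 1 genotype are labelled as biological replicates, numbered 1 to 3 in the mutants and 1, 3 and 4 in WT. The study asked how each genotype responded to radiation and how that differed from WT and from the other mutants. Signals below are deposited MAS5 intensities, and a change is the difference between irradiated and untreated array of 1 line on the log2(signal + 16) scale, which understates changes of dim probe sets. Each arm holds 3 arrays, which limits the precision.

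DNA breaks activate Atm, which stabilizes the transcription factor p53 and, through a separate branch, releases NF-kB from its inhibitors in the cytoplasm. Pvt1 is a long noncoding RNA next to Myc whose human and mouse genes are known to hold p53 binding sites. Mir155hg is the host transcript from which miR-155 is cut, a microRNA of lymphocyte activation whose host gene responds to NF-kB and AP-1. Neat1 is the scaffold RNA of nuclear paraspeckles and is a known p53 target, while Malat1 is an abundant RNA of nuclear speckles. No function is given here for 9230114K14Rik. RefSeq lists all 5 as long noncoding RNAs, Pvt1 on chromosome 15, Mir155hg on chromosome 16, 9230114K14Rik on chromosome 5, and Neat1 and Malat1 on chromosome 19. The coding neighbours of Pvt1 are Myc and Gsdmc, those of 9230114K14Rik are Dhx15 and Sod3, and those of Mir155hg are Ncam2 and Mrpl39.

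The small RNA that the Mir155hg transcript can give is shown because the array reads the host transcript and not the microRNA. In RefSeq on build GRCm38.p6 the hairpin lies at chr16:84714140-84714204 on the plus strand, and capitals mark its mature arms, the 5p arm at chr16:84714143-84714165 and the 3p arm at chr16:84714182-84714202. In the mature sequences capitals mark the seed, bases 2 to 8, which pairs with target messages, and the seeds of both arms differ.
Mir155 hairpin: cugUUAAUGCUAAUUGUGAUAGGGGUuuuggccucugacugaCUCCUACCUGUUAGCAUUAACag
mmu-miR-155-5p: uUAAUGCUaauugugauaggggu
mmu-miR-155-3p: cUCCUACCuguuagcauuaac

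The window around the Mir155hg start site, 250 bases before to 50 after it (chr16:84712773-84713072, plus strand, GRCm38.p6, from RefSeq), is shown because Mir155hg is set beside the NF-kB targets below. It was searched on both strands for the NF-kB consensus, the p53 half-site consensus, the AP-1 site TGANTCA and TATAAA.
Mir155hg promoter: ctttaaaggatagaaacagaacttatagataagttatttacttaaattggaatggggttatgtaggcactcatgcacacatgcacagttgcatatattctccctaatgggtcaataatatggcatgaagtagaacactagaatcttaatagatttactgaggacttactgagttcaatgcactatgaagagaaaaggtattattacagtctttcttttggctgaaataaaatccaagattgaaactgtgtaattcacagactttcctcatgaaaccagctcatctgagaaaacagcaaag
None of these letters was found in this window. Of 32851 promoter windows of the same length, 8.46% held the NF-kB consensus, 8.36% the p53 half-site, 7.81% TGANTCA and 13.6% TATAAA.

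The targeted genes were checked first, on the 6 arrays of each genotype. H2ax read 18.7 to 107 on H2ax-/- arrays against 8330 to 13000 on WT arrays, Mdc1 read 3.52 to 176 on Mdc1-/- arrays against 336 to 476 on WT arrays, and Atm read 129 to 281 on Atm-/- arrays against 1300 to 1760 on WT arrays. Mre11a read 462 to 706 on Mre11A/A arrays and 1320 to 1710 on WT arrays. Trp53bp1 (736 to 1290 on 53bp1-/- arrays, 1180 to 1850 on WT arrays) and Prkdc (427 to 591 on Scid arrays, 543 to 665 on WT arrays) overlapped, so these probe sets do not check those labels. Of 9 pre-B markers on the array, 8 lay above the array median on all 42 arrays and Rag2, a recombinase subunit of pre-B cells, on 34. Of 6 T cell markers 4 lay above it on no array and Cd8a on 36, and of 6 stromal markers 4 lay above it on none. Csf1r, a myeloid receptor, lay above it on all 42 and Lyz2 on 21. Summed myeloid signal was 207 to 817 on irradiated arrays and 156 to 687 on untreated arrays. The irradiated arrays of Atm-/- line 2 and WT line 4 had the highest median signals, 115 and 103, against 62.3 to 82.7 on the other 40 arrays. The ratio of 3' to 5' Gapdh signal, a measure of RNA integrity, was 0.784 to 0.864 on irradiated arrays and 0.761 to 0.853 on untreated arrays. H2ax-/- line 2 stood apart in its radiation response and is given separately below.

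9230114K14Rik and Pvt1 (by its brightest probe set, 1450541_at) were higher after 1 Gy, by 1.08 or more on the log2 scale, in all lines of every genotype other than Atm-/-, apart from H2ax-/- line 2. 9230114K14Rik, with its single probe set 1456643_at, read 4857, 2163 and 2316 in irradiated Scid lines, against 521, 431 and 308 in the same lines untreated. In Mdc1-/- lines it read 2976, 2077 and 3505 irradiated and 503, 183 and 602 untreated, and in 53bp1-/- lines 1517, 2793 and 2241 irradiated and 256, 383 and 257 untreated. These 3 genotypes had mean changes of 2.77 ± 0.45, 2.81 ± 0.50 and 2.79 ± 0.28 (SD, n = 3 lines), or 6.82-fold, 7.01-fold and 6.9-fold on the same scale, with no overlap between treatments. WT lines read 3720.1, 3114 and 1516 irradiated and 389, 542 and 592 untreated, a mean change of 2.34 ± 0.94, lowest in line 4. Mre11A/A lines read 898, 1191 and 1572 irradiated and 347, 555 and 465 untreated, a smaller mean change of 1.38 ± 0.32. H2ax-/- lines read 2261, 141 and 2109.9 irradiated and 432, 109 and 305 untreated. Lines 1 and 3 of H2ax-/- were as high as other genotypes, with changes of 2.35 and 2.73, whereas line 2 was low on both arrays, with a change of 0.33. Atm-/- lines read 439.6, 222 and 428 irradiated and 425, 189.7 and 371 untreated, a mean change of 0.15 ± 0.09. Irradiated signals of Atm-/- lines lay below those of every other line except H2ax-/- line 2.

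Pvt1, read by its brightest probe set 1450541_at, also differed least between treatments in Atm-/- lines. Irradiated Scid lines read 3241, 3575 and 3155 against 785, 763 and 686 untreated, and WT lines read 2919, 2583 and 1749 irradiated against 557, 839 and 807 untreated. Their mean changes were 2.13 ± 0.10 and 1.69 ± 0.63. Mre11A/A lines read 602, 320.1 and 592 irradiated and 196, 138 and 187 untreated (1.42 ± 0.25). Lines of 53bp1-/- read 586, 858 and 968 irradiated and 216, 171 and 267 untreated (1.80 ± 0.42), and Mdc1-/- lines 905, 609 and 661 irradiated and 230.2, 166 and 267 untreated (1.65 ± 0.34). Irradiated and untreated arrays did not overlap in these 5 genotypes, although irradiated levels of Mre11A/A, 53bp1-/- and Mdc1-/- lines (320.1 to 968) overlapped the untreated WT levels (557 to 839). H2ax-/- lines read 727, 166 and 754 irradiated and 336, 165 and 245 untreated, so that line 2 read nearly alike on both arrays (0.01) while lines 1 and 3 had changes of 1.08 and 1.56. The H2ax-/- mean was 0.88 ± 0.79 with line 2 and 1.32 without it, and for 9230114K14Rik 1.80 ± 1.29 with and 2.54 without it. Without line 3 the Pvt1 mean was 0.54. Atm-/- lines read 513, 447 and 953 irradiated and 581, 398 and 635 untreated, with changes of -0.17, 0.16 and 0.57 and a mean of 0.19, or -0.01 without line 3. Over all 21 lines Pvt1 averaged 1.39 ± 0.74 and was higher in 20, and 9230114K14Rik averaged 2.01 ± 1.09 and was higher in 21.

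The other Pvt1 probe sets were also higher on average, by smaller amounts. Over 21 lines 1452324_at averaged 0.91, with 1.51 in Mdc1-/- lines, 1.38 in 53bp1-/- lines, 1.06 in Scid lines, 0.96 in H2ax-/- lines, 0.93 in WT lines and 0.71 in Mre11A/A lines. In Atm-/- lines it was lower on irradiated arrays in 3 of 3 lines, with 482, 283 and 593 irradiated against 497, 361 and 697 untreated. The dimmer sets were higher after radiation in 21 of 21 lines (1427140_at, although both arrays of Atm-/- line 3 read 147 when rounded) or in 19 of 21 lines (1431352_s_at and 1431351_at). The order of the genotypes thus varied between probe sets, while Atm-/- lines were lowest in both of the brightest sets.

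**Figure D1:**
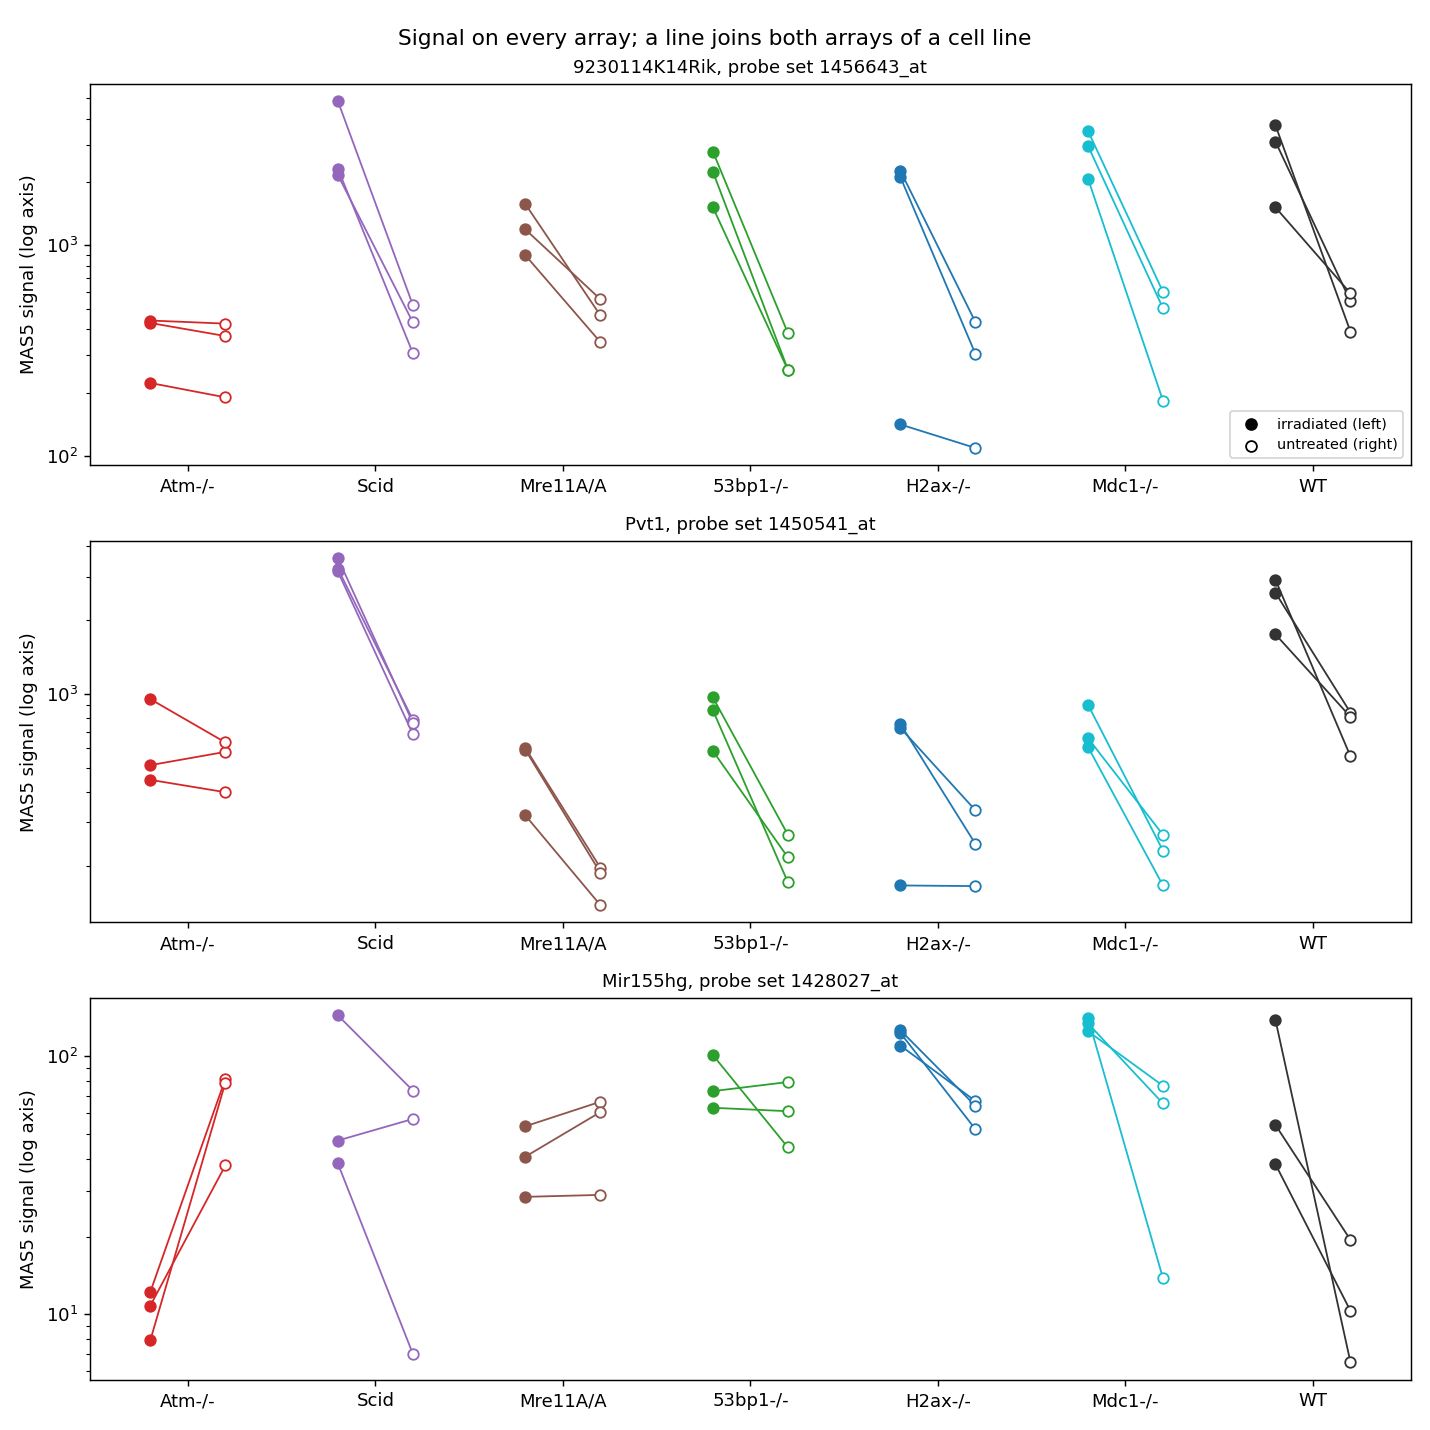
MAS5 signal (log axis) of 9230114K14Rik, Pvt1 and Mir155hg on all 42 arrays, with irradiated arrays as filled points left of the untreated arrays of the same lines as open points, by genotype. 9230114K14Rik reads 898 to 4857 on irradiated arrays outside Atm-/- and H2ax-/- line 2, and Mir155hg is the transcript whose irradiated points lie below the untreated ones in Atm-/- lines.

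Mir155hg had another genotype pattern than 9230114K14Rik and Pvt1. Its probe set 1428027_at read 38.1, 138 and 54.1 in irradiated WT lines against 10.3, 6.51 and 19.4 untreated, and 141, 125 and 134 in irradiated Mdc1-/- lines against 13.8, 76.8 and 65.6 untreated. H2ax-/- lines read 123, 109.9 and 126 irradiated and 52.1, 67.0 and 64.2 untreated. In these 3 genotypes all irradiated arrays lay above the untreated ones, with mean changes of 1.60 ± 1.02 in WT lines, 1.29 ± 0.97 in Mdc1-/- lines and 0.82 ± 0.22 in H2ax-/- lines. The WT mean was 1.01 without line 3 and the Mdc1-/- mean 0.74 without line 1, the lines with the largest changes. Scid lines read 144, 47.1 and 38.4 irradiated and 73.6, 57.1 and 7.02 untreated, and 53bp1-/- lines 63.1, 73.2 and 101 irradiated and 61.2, 79.4 and 44.3 untreated. Both sets overlapped, with mean changes of 0.62 ± 0.75 (1.04 without line 2 and 0.31 without line 3) and 0.30 ± 0.58 (-0.03 without line 3). Irradiated means were close in WT (76.8), 53bp1-/- (79.2) and Scid lines (76.6). Untreated means were 12.1 in WT lines and 45.9 to 66.1 in the mutants, so the larger WT change went with a lower untreated level. Mre11A/A lines read 28.5, 53.5 and 40.8 irradiated and 29.0, 66.6 and 60.7 untreated, with changes of -0.01, -0.25 and -0.43. Atm-/- lines read 10.8, 12.2 and 7.92 irradiated and 37.7, 81.6 and 78.9 untreated, so the irradiated arrays all lay below, by a mean of -1.59 ± 0.52. The signal was dim throughout. It lay above the array median on 10 irradiated arrays (3 each of H2ax-/- and Mdc1-/-, 2 of 53bp1-/-, 1 each of Scid and WT) and on 4 untreated arrays (2 of Atm-/-, 1 each of 53bp1-/- and Mdc1-/-). With a pseudocount of 1 the mean for Atm-/- was -2.51, and with 64 it was -0.79.

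Neat1 and Malat1 did not part irradiated from untreated arrays, apart from 1 dim Malat1 probe set in Scid lines. The brighter Neat1 probe set 1428083_at had genotype means between -0.20 ± 0.13 in Atm-/- lines and 0.18 ± 0.08 in 53bp1-/- lines, and averaged 0.04 ± 0.19 over 21 lines. Its signal was 378 to 565 in irradiated Atm-/- lines against 419 to 724 untreated, and 733 to 1467 in irradiated 53bp1-/- lines against 657 to 1350.3 untreated. Irradiated and untreated arrays of Neat1 overlapped in all 7 genotypes for both probe sets, and the dimmer set 1442881_at lay above the array median on 18 arrays only. Malat1, read by 1418189_s_at, had mean changes of -0.46 ± 0.64 in Atm-/- lines and -0.39 ± 0.64 in WT lines, and of -0.07 to 0.06 in the other 5 genotypes. The WT mean of this set rested on line 3, with 1556 irradiated and 3388 untreated, and was -0.03 without it. Atm-/- line 2 read 1897 irradiated and 4054 untreated, and the Atm-/- mean was -0.15 without it. In the plot of changes by line these points stand below the others. The other bright Malat1 sets, 1418188_a_at and 1438403_s_at, were lower after radiation in all 3 WT lines, with overlapping arrays. Their WT means were -0.54 ± 0.38 and -0.39 ± 0.32, and their Atm-/- means -0.59 ± 0.55 and -0.35 ± 1.08. The dimmer Malat1 sets had WT means of -0.14 to 0.05.

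**Figure D2:**
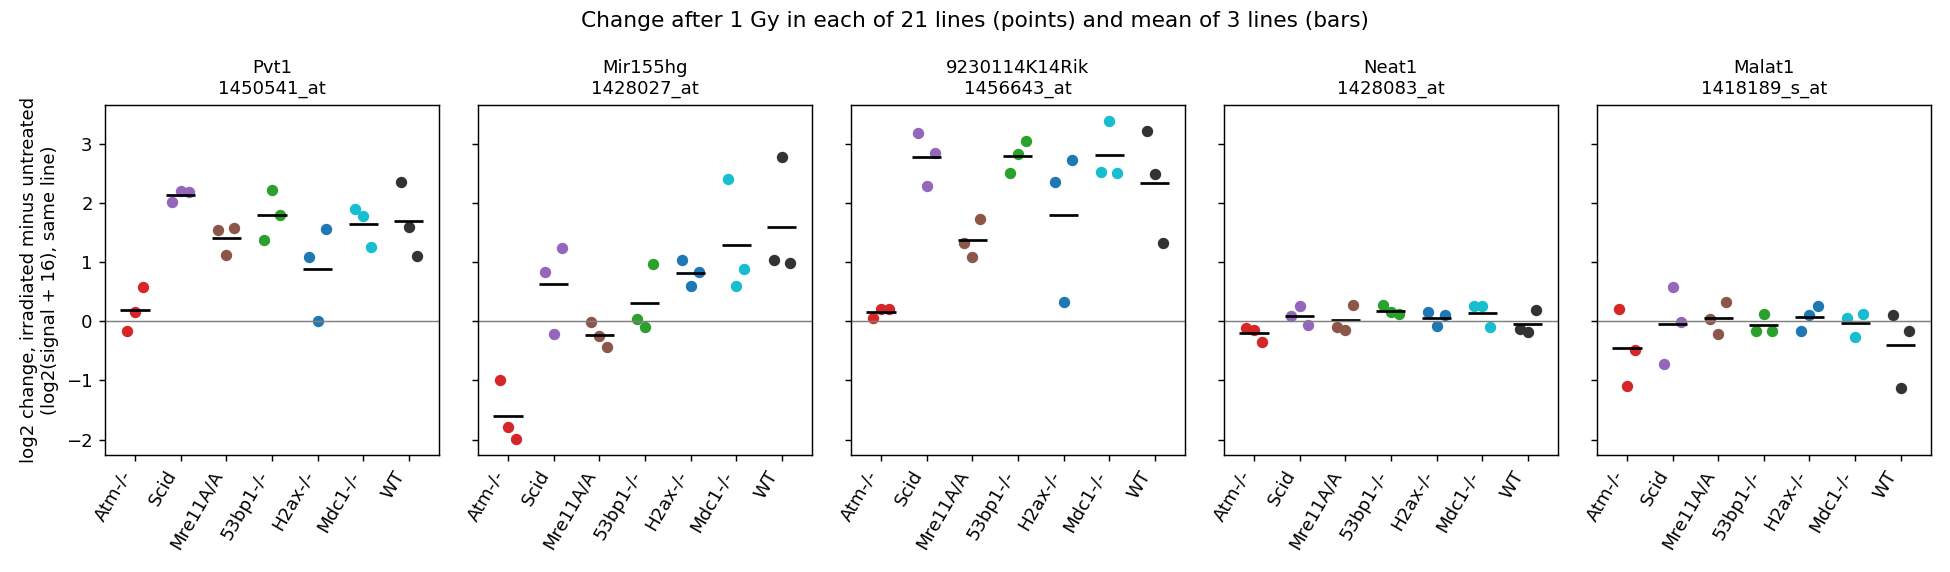
Log2 change after 1 Gy (irradiated minus untreated array of the same line, log2(signal + 16)) of the brightest probe set of each transcript, with a point per line and a bar for the mean of 3 lines. Atm-/- means are 0.19 for Pvt1, -1.59 for Mir155hg and 0.15 for 9230114K14Rik, and Neat1 means stay between -0.20 and 0.18.

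Counting probe sets whose irradiated arrays all lay above the untreated ones gives the same picture across the 16. In WT lines 7 of 16 were above (5 of Pvt1, Mir155hg and 9230114K14Rik), where 5.34% of all 28260 kept probe sets were. In Scid lines 7 were above (5 of Pvt1, 9230114K14Rik and the Malat1 set 1427285_s_at; 4.33% of all), in 53bp1-/- lines 6 (5 of Pvt1 and 9230114K14Rik; 4.91%) and in Mdc1-/- lines 6 (4 of Pvt1, Mir155hg and 9230114K14Rik; 6.95%). In Mre11A/A lines 5 were above (4 of Pvt1 and 9230114K14Rik; 3.71%). In H2ax-/- lines 1 was above, Mir155hg, against 3.98% of all. Arrays of H2ax-/- lines 1 and 3 alone did not overlap for the 5 Pvt1 sets and 9230114K14Rik. These lines were singled out after their values were seen. The share of all kept probe sets without overlap in them was not counted. With fewer arrays such a separation is easier to reach, so the 3.98% is no measure for it. In Atm-/- lines none was above, against 3.67% of all, and Mir155hg alone was below, against 2.54%. In the other genotypes none of the 16 was below, against 3.66% of all kept probe sets in Scid, 3.61% in Mre11A/A, 3.47% in 53bp1-/-, 5.79% in H2ax-/-, 6.45% in Mdc1-/- and 4.4% in WT lines. The members were chosen on these changes, so the counts only describe them.

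Set beside the lists, the 3 responsive transcripts ordered the lines differently. The p53 list holds 30 measured targets such as Cdkn1a, Mdm2 and Bbc3, and the NF-kB list 31 such as Nfkbia, Relb and Cd40. For each line the median change of each list was taken. The p53 medians averaged 0.14 ± 0.08 in Atm-/- lines, 0.63 ± 0.08 in Mre11A/A lines, 0.73 ± 0.52 in H2ax-/- lines, 1.15 ± 0.12 in 53bp1-/- lines, 1.22 ± 0.18 in Scid lines, 1.24 ± 0.18 in Mdc1-/- lines and 0.94 ± 0.47 in WT lines. The NF-kB medians averaged -0.01 ± 0.06 in Atm-/- lines, 0.28 ± 0.17 in Mre11A/A lines, 0.66 ± 0.17 in 53bp1-/- lines, 0.82 ± 0.66 in Scid lines, 0.86 ± 0.16 in H2ax-/- lines, 1.04 ± 0.05 in Mdc1-/- lines and 0.99 ± 0.17 in WT lines. Both lists were thus lowest in Atm-/- and next lowest in Mre11A/A lines. The NF-kB median lay furthest below the p53 median in Scid lines 2 (0.27 and 1.02) and 3 (0.63 and 1.26), and furthest above it in H2ax-/- line 2 and WT line 4.

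H2ax-/- line 2 had a p53 median of 0.14, against 1.05 and 1.01 in lines 1 and 3, and an NF-kB median of 0.70, against 1.02 and 0.86. In that line the change was 0.33 for 9230114K14Rik, 0.01 for Pvt1 and 0.60 for Mir155hg, which had 1.03 and 0.83 in lines 1 and 3. WT line 4 had the lowest p53 median of the WT lines (0.42, against 1.33 and 1.06) and an NF-kB median of 0.88 (against 0.92 and 1.19). There the change was 1.33 for 9230114K14Rik, against 3.21 and 2.49 in the other WT lines, 1.10 for Pvt1, against 2.36 and 1.60, and 0.98 for Mir155hg, against 1.04 and 2.77. The irradiated array of WT line 4 is also 1 of the 2 with a high median signal, and its part in these values was not tested.

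Over the 21 lines 9230114K14Rik correlated with the p53 median at Pearson r = 0.986 and Spearman rho = 0.949, and with the NF-kB median at r = 0.729 and rho = 0.679. Atm-/- lines lie at the low end of every axis, so the values were taken again over the other 18 lines. There 9230114K14Rik had r = 0.979 with p53 and 0.504 with NF-kB, and Pvt1 had 0.796 and 0.0798. Mir155hg had 0.29 with p53 and 0.671 with NF-kB. Without H2ax-/- line 2 as well (17 lines, chosen after seeing the data), r with p53 and NF-kB was 0.967 and 0.59 for 9230114K14Rik, 0.662 and 0.0619 for Pvt1, and 0.332 and 0.67 for Mir155hg. The medians of both lists correlated at 0.708 over 21 lines and 0.482 over 18. The Pvt1 set 1452324_at was nearer to both lists, with 0.855 for p53 and 0.50 for NF-kB over 18 lines. These correlations are descriptions: all points share the arrays and their scaling, and the transcripts were chosen for such patterns.

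**Figure D3:**
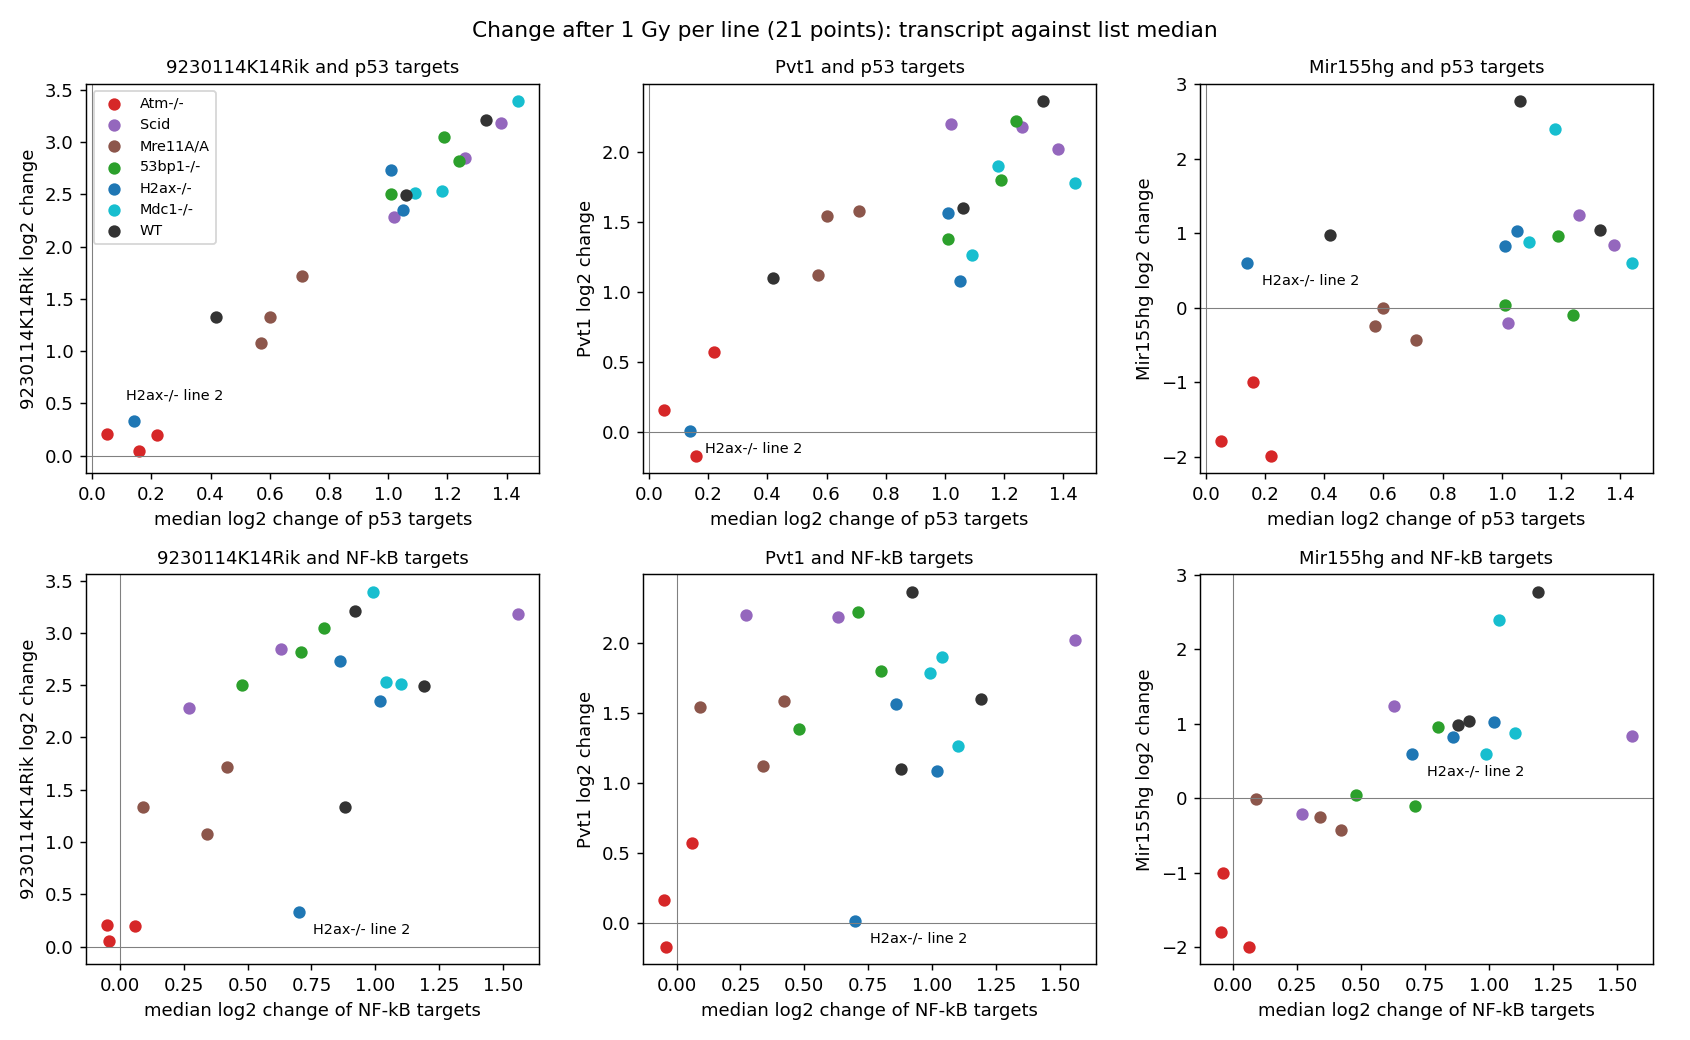
Log2 change after 1 Gy of 9230114K14Rik, Pvt1 and Mir155hg (y axes) against the median log2 change of the p53 targets (upper row) and of the NF-kB targets (lower row), with 1 point for each of 21 lines coloured by genotype. H2ax-/- line 2 lies with the Atm-/- lines on the p53 axis (0.14) and with the responding lines on the NF-kB axis (0.70).

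The genes most like each transcript across the 21 lines were found among 12362 others by Pearson r. For 9230114K14Rik these were Slc19a2 (0.972), a thiamine transporter on the p53 list, Aen (0.952), a p53-induced nuclease, Enc1 (0.949), an actin-binding protein, Polk (0.938), a translesion polymerase, and Cdc34 (0.937), a ubiquitin-conjugating enzyme. For Pvt1 they were Kifc5b (0.916), a kinesin, Slc19a2 (0.886), Trp53inp1 (0.882), a p53-induced nuclear protein, Enc1 (0.878) and 9230114K14Rik (0.876). For Mir155hg they were Nuak1 (0.851), a kinase, Ifngr2 (0.824), an interferon gamma receptor chain, Nfkbia (0.82), the NF-kB inhibitor, Icam1 (0.815), an adhesion molecule, and Inf2 (0.811), a formin. Over the 18 lines other than Atm-/- the r of these genes was 0.893 to 0.948 for 9230114K14Rik, 0.766 to 0.896 for Pvt1 and 0.662 to 0.834 for Mir155hg. Of the 50 most alike over 21 lines, 14 for 9230114K14Rik and 11 for Pvt1 were on the p53 list and 0 of either on the NF-kB list. For Mir155hg 0 were on the p53 list and 11 on the NF-kB list. The lists hold 30 and 31 of all genes compared. The transcripts were chosen for such patterns, so these counts only describe them. For Neat1 the nearest were Rnf31 (0.725), Mctp1 (0.724), Metrn (0.691), Calhm2 (0.673) and Rimklb (0.666), and for Malat1 Zc3h15 (0.739), Smc6 (0.738), Shb (0.73), Naa15 (0.73) and Mtmr4 (0.727). Of their 50 most alike, 1 for Neat1 was on the p53 list and 0 for Malat1 on either list.

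The other genes of both pathways and other noncoding transcripts were tested in the mean response over the 7 genotypes, with limma and Benjamini-Hochberg adjustment over all 28260 probe sets at 0.05. All lists were chosen with earlier results of these data known, and the named examples after their values were seen. The counts and p-values of the p53 and NF-kB lists therefore only describe them. Of 30 p53 targets 18 rose and 0 fell, with a median log2 change of 0.88, where 1.79% of all probe sets rose, 0.616% fell and the median was 0. Cdkn1a, the p21 cell-cycle inhibitor, averaged 7621 on irradiated and 2041 on untreated arrays (log2 change 1.72 ± 0.30 SE, adjusted p = 0.00039, higher in 21 of 21 lines). Slc19a2 rose by 1.69 ± 0.20 (adjusted p = 4.9e-07). Of 31 NF-kB targets 17 rose and 0 fell, with a median of 0.62. Relb, an NF-kB subunit, averaged 419.9 on irradiated and 65.89 on untreated arrays (2.04 ± 0.17, adjusted p = 1.1e-09, higher in 18 of 21 lines). With the line as a replicate block, 23 p53 and 24 NF-kB targets rose, where 5.21% of all probe sets rose and 5.54% fell.

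Of 37 other noncoding transcripts with a kept probe set, among 70 listed, 0 were called in the same limma fit, 3 had an unadjusted p under 0.05, and the median change was 0.01. With the replicate block 1 rose and 2 fell. Mirg, a microRNA host of the Dlk1-Dio3 cluster, averaged 52.03 on irradiated and 27.89 on untreated arrays, a change of 0.68 ± 0.20 SE that was higher in 16 of 21 lines (limma adjusted p = 0.068, and 0.023 with the block). It passed the threshold when any of 7 arrays was left out (adjusted p = 0.02 to 0.049), namely the irradiated arrays of 53bp1-/- replicate 3, H2ax-/- replicate 2 and WT replicate 3 and the untreated arrays of Atm-/- replicate 1, Mre11A/A replicate 3, 53bp1-/- replicate 1 and WT replicate 1. Its log2 change was 1.46 in Scid, 1.17 in Atm-/-, -0.12 in H2ax-/- and 1.27 in WT lines, on a mean signal of 39.96, below the lowest array median. Ftx, a noncoding neighbour of Xist in the X-inactivation centre, had a change of -0.16 ± 0.09 SE (limma adjusted p = 0.54, and 0.0035 with the block), and Tug1, a broadly expressed noncoding RNA, by -0.08 ± 0.05 SE (0.59, and 0.032 with the block). Well-expressed noncoding RNAs such as Gas5, a snoRNA host (-0.02), and Norad, a cytoplasmic RNA that binds Pumilio proteins (0.01), stayed near 0.

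Myc, the coding neighbour of Pvt1 and a driver of growth, fell after radiation. It averaged 4271 on irradiated and 6074 on untreated arrays, a log2 change of -0.55 ± 0.12 SE (limma adjusted p = 0.0077, and 3.8e-09 with the replicate block), and was lower in 20 of 21 lines. Myc was also named with earlier results of these data known, so its p-values only describe it. By genotype its change was -0.33 in Atm-/-, -0.66 in Scid, -0.36 in Mre11A/A, -0.62 in 53bp1-/-, -0.38 in H2ax-/-, -0.79 in Mdc1-/- and -0.70 in WT lines. As a description with the same shared arrays, the changes of Pvt1 1450541_at and Myc had r = -0.627 over 21 lines, -0.549 over the 18 lines other than Atm-/- and -0.241 over the 17 without H2ax-/- line 2 as well, so that the relation rested in large part on that line. With the Pvt1 set 1452324_at the 17 lines gave -0.623. Those of Myc with the p53 and NF-kB medians were -0.734 and -0.714 over 21 lines, and that with 9230114K14Rik was -0.743. The cause of these relations was not tested.

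Untreated levels were tested for each mutant against WT over the 21 untreated arrays. The transcripts were not picked for this contrast, but earlier radiation results of these arrays were known. The same untreated arrays enter those radiation changes, so these tests are not independent of the choice. Pvt1 1450541_at was lower in Mre11A/A (-1.97, adjusted p = 0.00014), 53bp1-/- (-1.68, adjusted p = 0.00075), H2ax-/- (-1.53, adjusted p = 0.0014) and Mdc1-/- lines (-1.66, adjusted p = 0.00046), each with SE 0.25 from limma and 3 lines against 3. All 12 untreated arrays of these genotypes read 138 to 336, and the 9 of Atm-/-, Scid and WT lines 398 to 839, without overlap. The share of all kept probe sets that part the same 12 arrays from the 9 was not counted. The 3' to 5' Gapdh ratio was 0.8 to 0.853 on the 12 arrays and 0.761 to 0.829 on the 9, the Actb ratio is given with Malat1 below, and their part in the Pvt1 values was not tested. Atm-/- (-0.44, adjusted p = 0.58) and Scid lines (0.04, adjusted p = 0.98) were not called. Of all kept probe sets, 4.42% were called in either direction for Mre11A/A, 4.36% for 53bp1-/-, 4.95% for H2ax-/-, 6.61% for Mdc1-/-, 0.248% for Scid and 0.0531% for Atm-/-. The other 4 Pvt1 probe sets were called in no mutant and their arrays overlapped between both sets of genotypes, with differences from WT of -0.17 to -0.62 for 1452324_at in the same 4 mutants. The lower untreated level was thus seen by 1 of 5 probe sets, and the transcripts that each set reads are not given in the sources used here.

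Malat1 split the same genotypes in the opposite direction. Its brightest probe set 1418189_s_at averaged 12597 ± 735 in untreated Mre11A/A lines, 12096 ± 1529.5 in 53bp1-/- lines, 7999.9 ± 1317 in H2ax-/- lines and 7926 ± 1883 in Mdc1-/- lines, against 2786 ± 715 in WT lines (SD, n = 3). The differences were 2.20 (adjusted p = 0.0015), 2.14 (0.0021), 1.54 (0.02) and 1.51 (0.018), each with SE 0.37 by limma. All 12 arrays of these genotypes read 5753 to 13626 and the 9 arrays of Atm-/-, Scid and WT lines 989 to 4054. The set 1418188_a_at did not overlap either, with 3224 to 8181 and 852 to 2911, and was called in Mre11A/A (1.78, limma adjusted p = 0.0048) and 53bp1-/- lines (1.73, limma adjusted p = 0.0061), with 1.09 (0.073) in H2ax-/- and 1.14 (0.052) in Mdc1-/- lines. These last were called in 3 and 6 of 28 alternatives, among them all 42 arrays with the line as a random effect (adjusted p = 0.016 and 0.0097). Of the other 5 Malat1 sets 1 was called once, 1427285_s_at in 53bp1-/- lines (1.08, limma adjusted p = 0.035). The bright set 1438403_s_at, at 2034 to 6610 in the 4 mutants and 1453 to 6420 in the other genotypes, was not called. The set 1436202_at was 1.04 higher in Mre11A/A lines (limma adjusted p = 0.052, called in 7 of 28 alternatives) with overlapping sets of genotypes. The split without overlap was thus seen by 2 of 7 probe sets, and its share over all kept probe sets was not counted. The calls of 1418189_s_at in H2ax-/- lines ended without WT replicate 4 (limma adjusted p = 0.094), H2ax-/- replicate 1 (0.064) or replicate 2 (0.081), and ranged over 0.0016 to 0.094 in 29 alternatives. Those in Mdc1-/- lines ended without WT replicate 4 (0.087), Mdc1-/- replicate 1 (0.069) or replicate 2 (0.071), and ranged over 0.0013 to 0.087. That of 1427285_s_at ended without any 1 of the untreated WT or 53bp1-/- arrays and without the filter on low signals (0.069, range 0.021 to 0.13). The 3' to 5' Actb ratio was 1.3 to 1.54 on the 12 arrays and 1.26 to 1.44 on the 9, and the Gapdh ratio 0.8 to 0.853 and 0.761 to 0.829. Their part in the Malat1 values was not tested. The labels name no batch.

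**Figure D4:**
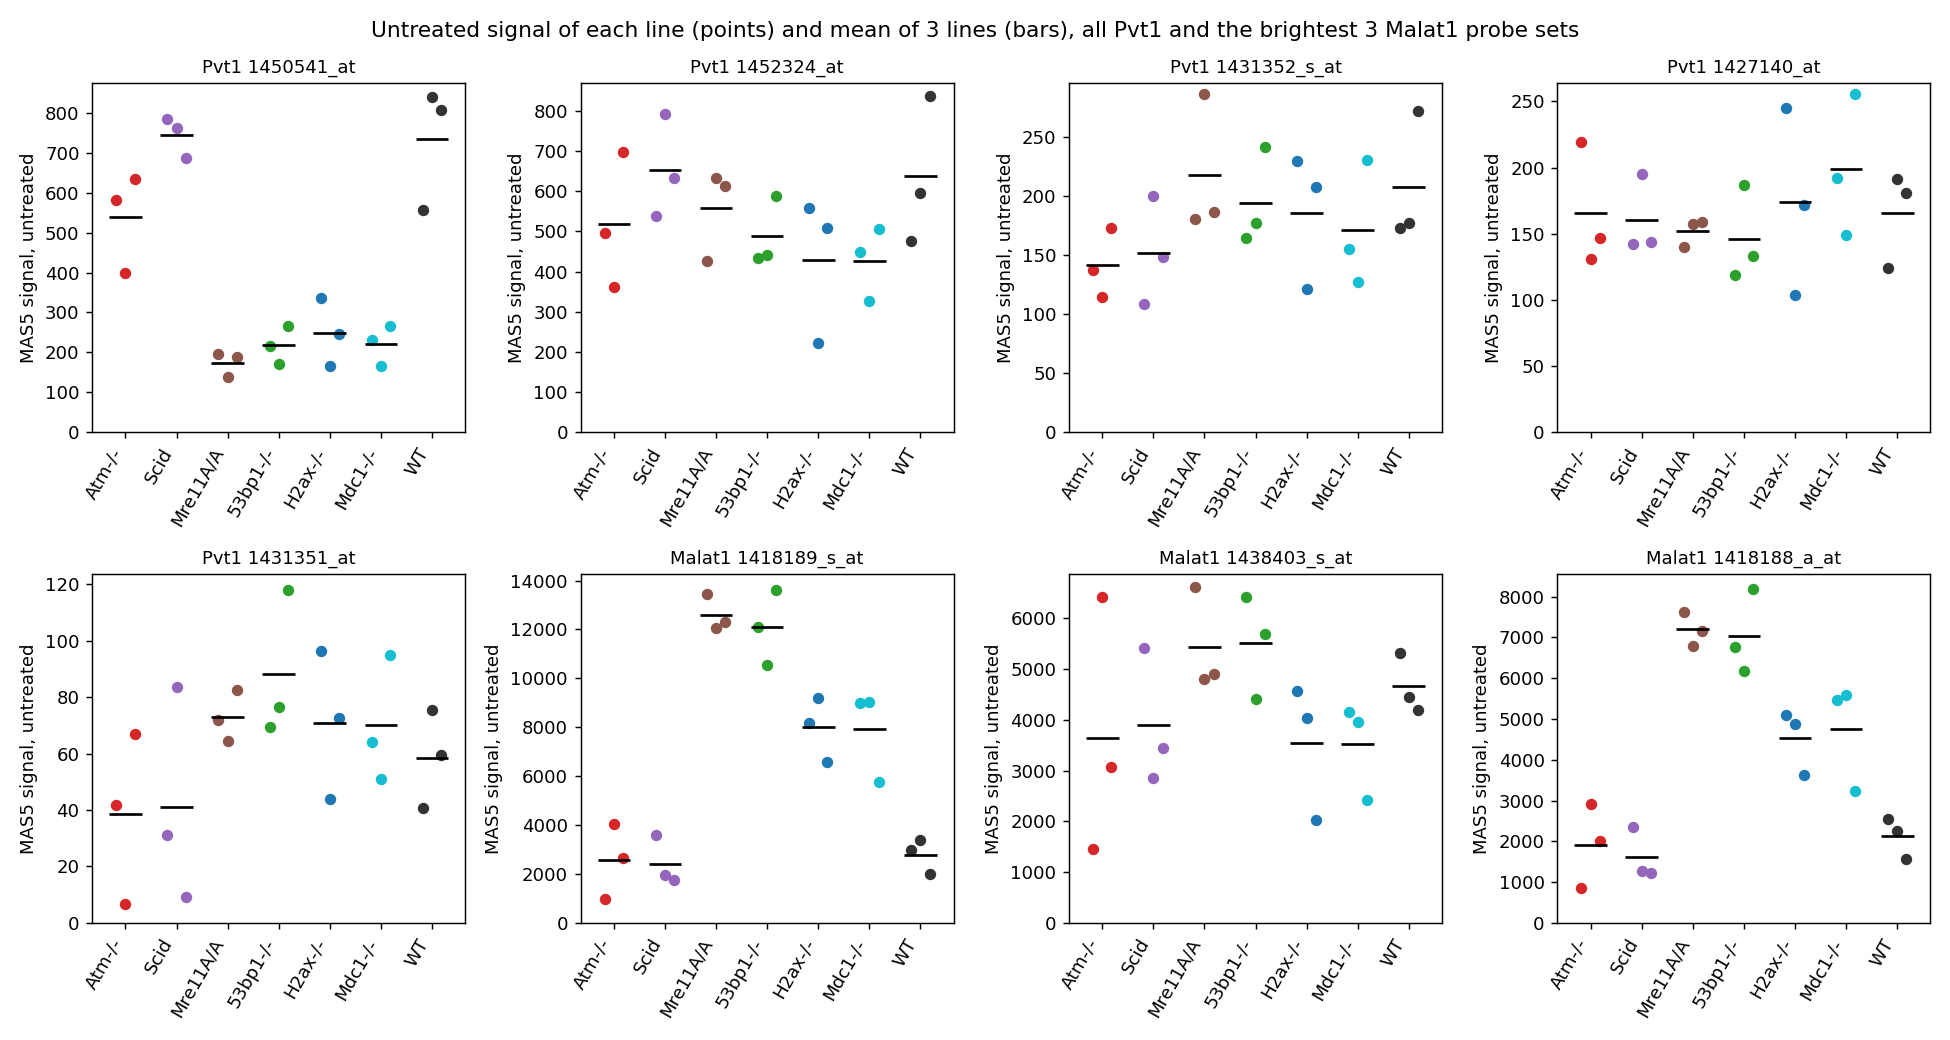
Untreated MAS5 signal (linear axes from 0) of all 5 Pvt1 probe sets and the 3 brightest Malat1 probe sets, with a point per line and a bar for the mean of 3 lines. Pvt1 1450541_at is low (138 to 336) and Malat1 1418189_s_at high (5753 to 13626) in the Mre11A/A, 53bp1-/-, H2ax-/- and Mdc1-/- lines, a split that Pvt1 1452324_at and Malat1 1438403_s_at do not show.

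Mir155hg had a higher mean untreated signal in every mutant than in WT lines, but no difference passed the threshold. It averaged 66.1 ± 24.6 in Atm-/-, 61.6 ± 17.5 in 53bp1-/-, 61.1 ± 7.94 in H2ax-/-, 52.1 ± 20.2 in Mre11A/A, 52.1 ± 33.7 in Mdc1-/- and 45.9 ± 34.7 in Scid lines, against 12.1 ± 6.65 in WT lines (SD, n = 3). The differences on the log2(signal + 16) scale ran from 0.95 in Scid to 1.52 in Atm-/- lines, with SE 0.49 and limma adjusted p of 0.088 (H2ax-/-) to 0.49 (Scid). Neighbours in this order overlapped throughout, while arrays of Atm-/-, 53bp1-/-, H2ax-/- and Mre11A/A lines did not overlap those of WT lines. The share of all kept probe sets without overlap in these comparisons was not counted. All of them use the same dim WT arrays (6.51 to 19.4), so they do not add up as separate support. Without Scid replicate 3, which entered the shared spread, 53bp1-/- (limma adjusted p = 0.047) and H2ax-/- lines (0.042) passed the threshold, and over all 29 alternatives the values ran to 0.24 and 0.22. Of the 21 untreated signals 17 lay below the array median. 9230114K14Rik was called in no mutant, with differences of -0.15 (Mre11A/A) to -0.98 (H2ax-/-) and SE 0.44. Neat1 1428083_at averaged 1215 ± 248 in Scid and 1057 ± 209 in Mre11A/A lines against 596 ± 92.7 in WT lines, and neither difference was called (1.00 and 0.80, limma adjusted p = 0.22 and 0.20).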

How the data were processed

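The authors' deposited table holds probe-set intensities on a linear scale from 42 Affymetrix arrays, produced by MAS5 according to the submitters' processing notes; the version and scaling steps are not given in the sources used here. Total RNA was labelled with biotin after the manufacturer's one-cycle amplification, per the labels' protocols. Groups and replicate numbers came from the labels. The platform annotation gave 1 symbol to 34945 of 45101 probe sets and more than 1 to 932. The 28260 probe sets kept lay above the median of their own array on at least 3 arrays.

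Values were tested as log2(signal + 16) with limma 3.58.1 in R 4.3.3 (lmFit, eBayes with a trend, two-sided, Benjamini-Hochberg over kept probe sets, threshold 0.05). Each untreated mutant was set against WT in 21 untreated arrays (14 residual degrees of freedom). The mean response of the 7 genotypes used 42 arrays (28 degrees of freedom) and, as an alternative, the line as a block (14). Arrays with the same genotype and number were taken as 1 line. Deviations from group means correlated at 0.322 to 0.598 in all 21 such pairs, and at -0.419 to -0.04 in 42 pairs with different numbers. Deviations within a group sum to 0, so the negative values follow from the positive ones and add no support of their own. P-values of the untreated tests measure the spread between lines labelled as biological replicates. Those of the mean response without the block leave out the pairing, so differences in level between lines enter their error. With the block they measure the spread of the change between lines. The fits were first run on simulated data in which arrays were drawn independently, with no effect shared within a line. That simulation therefore cannot check the choice between the fits with and without the block. A listed gene is represented by its brightest kept probe set. Every probe set of the 5 transcripts entered the counts of overlap and the untreated tests, while radiation changes of the dimmer Malat1 sets are given in part.

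Named genes were the 5 transcripts, the 5 genes most alike each, called noncoding transcripts, Myc, the targeted genes, and examples from the lists chosen after their values were seen. The members and all gene lists were chosen with earlier results of these data known. Symbols were matched to RefSeq (GRCm38.p6) for chromosomes, neighbours and sequences. Plots used Python 3.11.15, pandas 2.3.3 and matplotlib 3.10.9.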

Additional observations from a re-analysis of the deposited data

Results flagged for a closer look

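For Pvt1 1452324_at, all 3 Atm-/- lines were lower after 1 Gy and all 3 lines of each other genotype higher. The mean log2 change in Atm-/- lines minus that in the other genotype was -1.27 for Scid, -0.91 for Mre11A/A, -1.58 for 53bp1-/-, -1.16 for H2ax-/-, -1.72 for Mdc1-/- and -1.13 for WT lines. For Mir155hg, all Atm-/- lines were lower and all H2ax-/-, Mdc1-/- and WT lines higher, and Atm-/- minus these was -2.41, -2.89 and -3.19. All 3 Mre11A/A lines were lower as well, by as little as 0.01 in size in line 1, and Mre11A/A minus H2ax-/-, Mdc1-/- and WT was -1.05, -1.53 and -1.83. Neat1 1428083_at was lower in all Atm-/- and higher in all 53bp1-/- lines, a difference of -0.39. Malat1 1427285_s_at was lower in all Atm-/- and higher in all Scid lines, a difference of -0.75. These differences were not tested, because the transcripts were chosen on their radiation changes. With 3 lines against 3 among 16 probe sets and 7 genotypes, some such splits can arise without any difference.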

How the results depend on the processing

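Over the 21 lines the mean change of Pvt1 was 1.39, and 0.81 with probe set 1431351_at or 0.91 with 1452324_at. Leaving out each line in turn gave 1.35 to 1.47 for Pvt1, 0.28 to 0.52 for Mir155hg, 1.94 to 2.1 for 9230114K14Rik, 0.02 to 0.05 for Neat1 and -0.16 to -0.08 for Malat1. The mean over 21 lines was -0.09 for Neat1 with 1442881_at and 0.03 for Malat1 with 1427285_s_at or 1429060_at, each opposite in sign to the brightest set. Genotype means also turned sign without 1 line, to -0.01 for Pvt1 in Atm-/-, -0.03 for Mir155hg in 53bp1-/-, -0.11 and 0.03 for Neat1 in Mre11A/A and WT, and 0.28, -0.09, -0.03 and 0.09 for Malat1 in Scid, Mre11A/A, H2ax-/- and Mdc1-/- lines. No difference past the threshold between untreated mutant and WT, among the 16 probe sets, turned sign under the alternatives run. The number of probe sets called between untreated mutant and WT moved with 1 probe set per gene, which tests fewer features, to 2 for Atm-/-, 26 for Scid, 243 for Mre11A/A, 272 for 53bp1-/-, 388 for H2ax-/- and 522 for Mdc1-/-. With all 42 arrays and the line as a random effect it was 39 for Atm-/- and 139 for Scid, and the cause was not tested. Leaving out 1 array gave 10 to 67 for Atm-/-, 27 to 198 for Scid, 638 to 1473 for Mre11A/A, 590 to 1648 for 53bp1-/-, 711 to 1824 for H2ax-/- and 924 to 2334 for Mdc1-/-. The Pvt1 1450541_at calls in these last 4 held in all 29 alternatives (adjusted p at most 0.012). The mean response called 681 probe sets, 568 to 765 without 1 array, 375 with 1 probe set per gene and 3038 with the replicate block that pairs both arrays of a line; noncoding transcripts called were 0, 0 to 1 without 1 array and 3 with the block. The Mir155hg mean in Atm-/- lines varied most with the pseudocount, from -2.51 to -0.79.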
